A study of Mus musculus with 2 samples.

Results

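The genes described here are 9 transcription factors that mark classes of neurons in the spinal cord and the peripheral ganglia, Lhx1, Lhx5, Lhx9, Pax2, Tlx3, Isl1, Lmx1b, Pou4f1 and Mnx1. They were chosen by symbol, as 9 of the 32285 genes in the count table, and all 9 were found there. Their unique molecular identifiers (UMIs, each standing for 1 captured RNA molecule) were counted in neurons, which were the cells with at least 5 UMIs of Tubb3, Stmn2 and Elavl3 together and none of the glial gene Sox10, and in the other cells. The neurons came to 1944 of 22868 cells that passed the quality limits.

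The cells came from trunks and limbs of E14 mouse embryos that had been sorted for tdTomato (tdT), a red reporter that Cre recombinase switches on from the Rosa26 locus. Cre was driven by the promoter of Myf5, an early muscle gene, so the sort holds cells in which that driver was on at some time and cells descended from them. Both libraries carried Myf5-Cre and tdT, with floxed Srsf2, a splicing factor, on both alleles (SRSF2f/f, MKO/tdT) or on 1 allele beside a wild-type allele (SRSF2f/w, Het/tdT littermates). There was 1 library per genotype, so no difference between the genotypes can be tested, and intervals are exact 95% intervals that cover counting error alone.

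The levels of Srsf2 and the muscle markers run against the labels of the libraries. In the library labelled MKO/tdT the kept cells held Srsf2 at 219 CPM (UMIs per 1000000 UMIs of the population), against 153 in the library labelled Het/tdT, and 1765 cells outside the neurons carried muscle markers, against 81. The names of the deposited summaries and headings in the supplement of the study also run opposite to the sample titles, and 3' reads check a floxed gene only where they fall in the deleted part, which the sources used here do not place. The libraries are therefore named by their titles throughout, and a direction between them is a direction between 2 libraries. Neurons made up 11.3% (10.7% to 11.9%) of 10345 kept cells in the library labelled Het/tdT and 6.18% (5.77% to 6.62%) of 12523 in the library labelled MKO/tdT. Their median depths were 8637 and 8258.5 UMIs. Of the barcode sequences, 74 occurred in both libraries, and 7 and 6 neurons carried such a barcode.

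In the developing dorsal spinal cord, postmitotic neurons take up either an inhibitory or an excitatory fate. Pax2, a paired-box factor, and the LIM-homeodomain factors Lhx1 and Lhx5 are known for inhibitory neurons that release GABA or glycine, while the homeobox factor Tlx3 and the LIM-homeodomain factor Lmx1b are known for excitatory neurons that release glutamate. Outside the cord, the POU factor Pou4f1 and the LIM-homeodomain factor Isl1 mark sensory neurons of the dorsal root ganglia, and Isl1 is also made in sympathetic and motor neurons. Mnx1 is a homeobox factor of motor neurons, and Lhx9, another LIM-homeodomain gene, marks a class of dorsal commissural neurons.

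The start regions of genes from both sides of that choice are shown, so that a reader can see the DNA beside which the inhibitory and the excitatory factors are transcribed. Each is the 250 bases at and before the RefSeq start (GRCm38.p6), 5′ to 3′ on the strand of the gene, and capitals mark TAAT or its reverse complement ATTA, the core that many homeodomain proteins recognise, and CANNTG, the E-box core. The windows lie at chr11:84525535-84525784 (Lhx1, minus strand), chr19:44755502-44755751 (Pax2, plus strand), chr11:33203589-33203838 (Tlx3, minus strand) and chr2:33641099-33641348 (Lmx1b, minus strand).
Lhx1: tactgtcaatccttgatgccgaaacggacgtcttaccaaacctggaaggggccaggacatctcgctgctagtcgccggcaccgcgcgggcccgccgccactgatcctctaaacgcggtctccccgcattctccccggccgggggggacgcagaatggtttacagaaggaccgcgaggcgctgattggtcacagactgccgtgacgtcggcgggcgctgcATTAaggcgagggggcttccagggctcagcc
Pax2: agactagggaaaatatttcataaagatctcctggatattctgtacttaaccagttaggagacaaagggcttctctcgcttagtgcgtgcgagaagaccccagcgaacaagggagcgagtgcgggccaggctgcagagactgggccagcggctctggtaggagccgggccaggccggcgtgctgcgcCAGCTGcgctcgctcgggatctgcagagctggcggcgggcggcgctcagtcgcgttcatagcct
Tlx3: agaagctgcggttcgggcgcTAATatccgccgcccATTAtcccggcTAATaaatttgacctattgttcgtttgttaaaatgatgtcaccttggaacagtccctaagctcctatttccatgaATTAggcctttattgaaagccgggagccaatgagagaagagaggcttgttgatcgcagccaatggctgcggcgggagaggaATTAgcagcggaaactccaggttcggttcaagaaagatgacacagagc
Lmx1b: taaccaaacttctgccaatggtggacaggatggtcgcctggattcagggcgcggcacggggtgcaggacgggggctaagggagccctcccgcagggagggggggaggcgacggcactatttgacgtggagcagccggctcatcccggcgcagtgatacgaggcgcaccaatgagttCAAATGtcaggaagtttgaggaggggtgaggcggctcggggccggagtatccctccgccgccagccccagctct
Among these windows, Tlx3 held 5 matches to TAAT on either strand, Lhx1 held 1, and Pax2 and Lmx1b held 0. Pax2 and Lmx1b each held 1 E-box core, and Lhx1 and Tlx3 held 0. Such matches are common, since 54.9% of 32851 windows of this length hold TAAT on some strand and 66.2% hold CANNTG. The reference table lists 8 of the 9 genes, and Pax2 has 3 windows in it, of which the one nearest to the annotated start was used.

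The genes lie apart from each other in the genome. By the GENCODE annotation of GRCm38, Lhx1 (ENSMUSG00000018698) spans chr11:84518284-84525535 on the minus strand and Lhx5 (ENSMUSG00000029595) chr5:120431699-120441223 on the plus strand. Pax2 (ENSMUSG00000004231) spans chr19:44756045-44837871 on the plus strand, and Tlx3 (ENSMUSG00000040610) chr11:33200752-33203589 on the minus strand. Isl1 (ENSMUSG00000042258) spans chr13:116298281-116309689, Lmx1b (ENSMUSG00000038765) chr2:33560965-33640511 and Pou4f1 (ENSMUSG00000048349) chr14:104461676-104467999, all on the minus strand. Lhx9 (ENSMUSG00000019230) at chr1:138825186-138848577 and Mnx1 (ENSMUSG00000001566) at chr5:29473034-29478470 are also on the minus strand. In the last 500 bases of their transcripts, where 3' reads start, 8 of the 9 genes shared no run of 50 bases with another gene. Of the 420 such runs in Lhx5, 16 also occurred elsewhere, and Lhx1 and Lhx5 shared 0 with each other. Antisense genes overlap Lhx5 (Gm27199) and Pax2 (Gm20395 and 1700039E22Rik), and the summaries of the study list antisense reads apart from the counted ones.

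The inhibitory factors were found in under 20% of the neurons. In the library labelled Het/tdT, Lhx5 had a UMI in 19.8% (17.6% to 22.2%) of 1170 neurons, Pax2 in 18.5% (16.3% to 20.8%) and Lhx1 in 16.3% (14.3% to 18.6%). In the library labelled MKO/tdT, the shares of 774 neurons were 14.9% (12.4% to 17.6%) for Lhx5, 15.4% (12.9% to 18.1%) for Pax2 and 8.27% (6.43% to 10.4%) for Lhx1. As levels, Lhx1 stood at 67.4 and 33.1 CPM of the UMIs of the neurons, Pax2 at 40.6 and 42.0 CPM, and Lhx5 at 33.2 and 25.7 CPM, in the order of the libraries just given. Lhx1 was unevenly spread among the neurons that had it, with a median of 4 UMIs and up to 48 in 1 cell in the library labelled Het/tdT, while Lhx5 had a median of 2 and at most 10.

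At full depth Tlx3 was the most widely detected of the 9 genes and Isl1 the one with the most UMIs. Tlx3 had a UMI in 36.5% (33.7% to 39.3%) of neurons in the library labelled Het/tdT and in 30.9% (27.6% to 34.3%) in the library labelled MKO/tdT, at 97.0 and 77.3 CPM. Isl1 was detected in 31.8% (29.1% to 34.5%) and 21.2% (18.4% to 24.2%), at 237 and 149 CPM, with a median of 6 UMIs in the neurons that had it in either library. Pou4f1 was detected in 22.1% (19.7% to 24.5%) and 17.7% (15.1% to 20.6%), at 78.1 and 62.5 CPM. Lmx1b was the 1 gene of these 4 with the higher share in the library labelled MKO/tdT, at 15.9% (13.4% to 18.7%) against 12.6% (10.8% to 14.7%), and stood at 24.6 against 16.0 CPM. UMIs were counted at the 3' end and were not divided by transcript length.

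Ordered by share in the library labelled Het/tdT, the intervals of Tlx3 and Isl1 at the top overlapped, Pou4f1 came next and lay clear of Isl1, and from Pou4f1 through Lhx5, Pax2 and Lhx1 to Lmx1b each gene overlapped the next. In the library labelled MKO/tdT, Tlx3 stood clear of Isl1, and Lhx1 came last of the 7. Lhx9 and Mnx1 lay far under them in both libraries. Lhx9 had a UMI in 12 and 3 neurons, a share of 1.03% and 0.388%, and Mnx1 had 12 UMIs in 3 neurons of the library labelled Het/tdT and 1 UMI in 1 neuron of the other. A count of 0 among 1170 and 774 neurons would allow a share of up to 0.256% and 0.388%. With the neurons found, the exact intervals of Mnx1 reached up to 0.747% and 0.718%. Little can be said of Mnx1 beyond its being rare. With each neuron thinned to 2000 UMIs, which left out 26 and 6 neurons, Lhx1 was found in 10.1% and 4.82%, Isl1 in 20.0% and 14.6%, Tlx3 in 15.5% and 14.7% and Lmx1b in 4.81% and 7.03%, in the order labelled Het/tdT and labelled MKO/tdT. At that depth Isl1 stood ahead of Tlx3 in the library labelled Het/tdT and level with it in the other. The plot of shares gives the values at full depth.

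**Figure D1:**
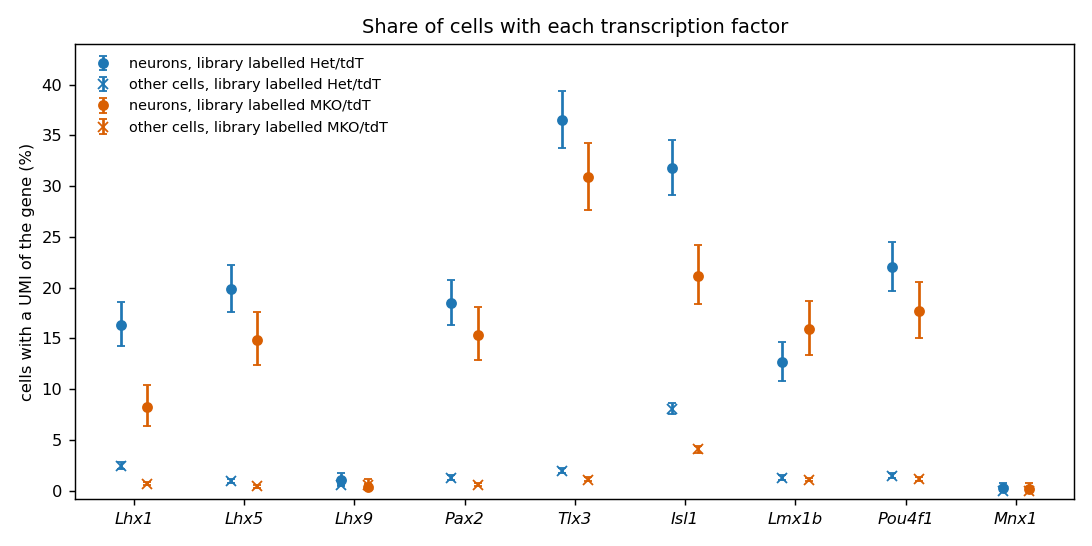
Share of cells with a UMI of each gene (percent, y axis) in neurons (circles) and other cells (crosses) of the library labelled Het/tdT (blue) and the library labelled MKO/tdT (orange). Bars are exact 95% intervals for counting error. Tlx3 is highest in neurons of both libraries, at 36.5% and 30.9%, and Lhx9 and Mnx1 sit near the axis.

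For 7 of the 9 genes the UMIs lay mostly in neurons. Neurons held 12.8% and 5.97% of all UMIs of the kept cells of the 2 libraries, in the order labelled Het/tdT and labelled MKO/tdT, but 83.4% and 78.2% of those of Lhx5, 82.0% and 81.1% of Tlx3, 82.3% and 74.6% of Pou4f1, and 79.2% and 78.5% of Pax2. The shares were 71.4% and 67.0% for Lhx1, 66.2% and 58.0% for Isl1, and 64.9% and 58.5% for Lmx1b. As levels in CPM, these 7 were 12.6- to 34.3-fold higher in neurons than in other cells of the library labelled Het/tdT and 21.7- to 67.6-fold higher in the library labelled MKO/tdT, and each passed 10-fold in both libraries, where 2.76% of 17082 genes did. Neurons were chosen by 3 other genes, and the fold has no test behind it, with 1 library of each kind. The UMIs of Lhx9 did not gather in neurons, with 19.0% and 5.06% of its UMIs in them and folds of 1.60 (0.916 to 2.66) and 0.840 (0.223 to 2.24). Mnx1 had 12 of 13 and 1 of 3 UMIs in neurons.

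Neuron markers were not equally present in all of the 1944 cells. Of the 6 neuron markers (Tubb3, Stmn2, Elavl3, Dcx, Elavl4 and Snap25), at least 3 were detected in 82.6% of neurons in the library labelled Het/tdT and in 70.5% in the library labelled MKO/tdT. Tubb3, Stmn2 and Elavl3 are the genes of the rule, so that share is partly set by it. The markers outside the rule were found in fewer neurons, Dcx in 70.3% and 64.7%, Elavl4 in 54.4% and 47.5% and Snap25 in 50.1% and 40.2%. At least 3 of 6 markers of mesenchyme (Pdgfra, Prrx1, Twist1, Twist2, Lum and Dcn) were also detected in 23.8% and 34.9% of the neurons, with a summed level of 719 and 1147 CPM beside 992 and 1074 CPM in the other cells. At least 3 markers of some other class were found in 39.7% and 48.6% of the neurons, and doublets were not called. Cells just inside the limit, with 5 or 6 UMIs of the 3 genes of the rule, had a UMI of at least 1 of the 9 genes in 47.3% and 35.8%, and cells just outside it, with 3 or 4, in 38.0% and 27.0%.

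Across all neurons, at least 1 of the 9 genes had a UMI in 75.1% (72.5% to 77.6%) in the library labelled Het/tdT and in 65.1% (61.6% to 68.5%) in the library labelled MKO/tdT. The neurons with no UMI of the 7 commoner genes had fewer of the other neuron markers and more mesenchyme markers than those with any of them. In the library labelled Het/tdT, 26.4% of these 296 cells had at least 2 of Dcx, Elavl4 and Snap25 and 49.7% had at least 3 mesenchyme markers. In the library labelled MKO/tdT, the same shares of 273 cells were 15.0% and 70.7%. Among neurons with Lhx1, Lhx5 or Pax2 but none of the other 4, 78.5% and 89.0% had at least 2 of Dcx, Elavl4 and Snap25, and 8.52% and 14.4% had at least 3 mesenchyme markers. Neurons with Tlx3, Isl1, Lmx1b or Pou4f1 but none of the other 3 had at least 3 mesenchyme markers in 16.4% and 16.0%, and neurons with a gene of both kinds in 29.0% and 12.5%. At least 3 markers of any other class were found in 55.1% and 45.8% of the neurons with both kinds. The shares were 18.9% and 30.1% with Lhx1, Lhx5 or Pax2 only, and 33.6% and 30.8% with Tlx3, Isl1, Lmx1b or Pou4f1 only. Without the cells that carried 3 or more markers of another class, the share of neurons with at least 1 of the 9 genes was 86.4% (83.6% to 88.8%) of 705 and 86.7% (82.9% to 89.9%) of 398, and the difference between the libraries fell within the intervals.

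The genes fell into 2 sets that were rarely detected in the same cell. For each pair, the number of neurons with UMIs of both was set beside the number expected if the genes were spread independently among neurons of like depth, in 10 depth bins per library. Of 36 pairs, 23 had an expected number of at least 5. Of these 23 pairs, 8 lay above their expected number and 13 below it by the exact interval, and each of the 23 lay on the same side in both libraries. For Lhx9 with Tlx3 and with Isl1 that side says little. The library labelled MKO/tdT had 0 such neurons, where 0.922 and 0.792 were expected. No background was computed for the same side in both libraries. Over 93579 pairs of a member with any other gene, the interval lay above the expected number in 11% and below it in 8.28%. A ratio of at least 2 was reached by 6 of the 23 pairs and by 0.711% of the background, and a ratio of at most 0.5 by 11 of the 23 and by 3.41% of the background. The background genes were not matched to the members for how widely they were detected. A gene found in most neurons has little room to reach either ratio, so the background is not like for like.

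Within the inhibitory set, Lhx5 and Pax2 were found together in 231 neurons, where 74.7 were expected (3.09-fold, 2.71 to 3.52). Lhx1 and Lhx5 were found together in 167, where 55.2 were expected (3.02-fold, 2.58 to 3.52), and Lhx1 and Pax2 in 142, where 52.2 were expected (2.72-fold, 2.29 to 3.21). These were the closest pairs, and 66.6% of neurons with Lhx5 had Pax2 and 69.0% of those with Pax2 had Lhx5. Within the other set, Lmx1b and Pou4f1 were found together in 109 neurons against 51.3 expected (2.12-fold, 1.74 to 2.56), Tlx3 and Pou4f1 in 320 against 151 (2.12-fold, 1.89 to 2.36) and Tlx3 and Lmx1b in 186 against 92.3 (2.01-fold, 1.74 to 2.33). Isl1 was paired with Tlx3 in 360 neurons against 205 (1.76-fold, 1.58 to 1.95) and with Pou4f1 in 220 against 136 (1.62-fold, 1.41 to 1.85).

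Across the sets, all 12 pairs lay below expectation. The lowest ratio was that of Lhx5 and Lmx1b, found together in 7 neurons where 56.5 were expected (0.124-fold, 0.0498 to 0.255), followed by Pax2 and Lmx1b with 8 against 54.6 and Lhx5 and Tlx3 with 23 against 113. The highest were Lhx1 and Isl1, with 35 against 59.9 (0.584-fold, 0.407 to 0.812), and Lhx1 and Pou4f1, with 28 against 49.0 (0.571-fold, 0.379 to 0.825). Within the Tlx3 set, 1 pair also lay below expectation, since Isl1 and Lmx1b shared 23 neurons where 54.0 were expected (0.426-fold, 0.270 to 0.639). The neurons with a gene of each set numbered 93 and had a median of 13822 UMIs, above the 6388 of neurons with Lhx1, Lhx5 or Pax2 alone of the sets and the 9239.5 of neurons with Tlx3, Isl1, Lmx1b or Pou4f1 alone of the sets. Whether these are doublets was not tested. Without the neurons that carried 3 or more markers of another class, the 21 pairs that still had an expected number of at least 5 kept their side, and 7 lay above and 13 below.

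**Figure D2:**
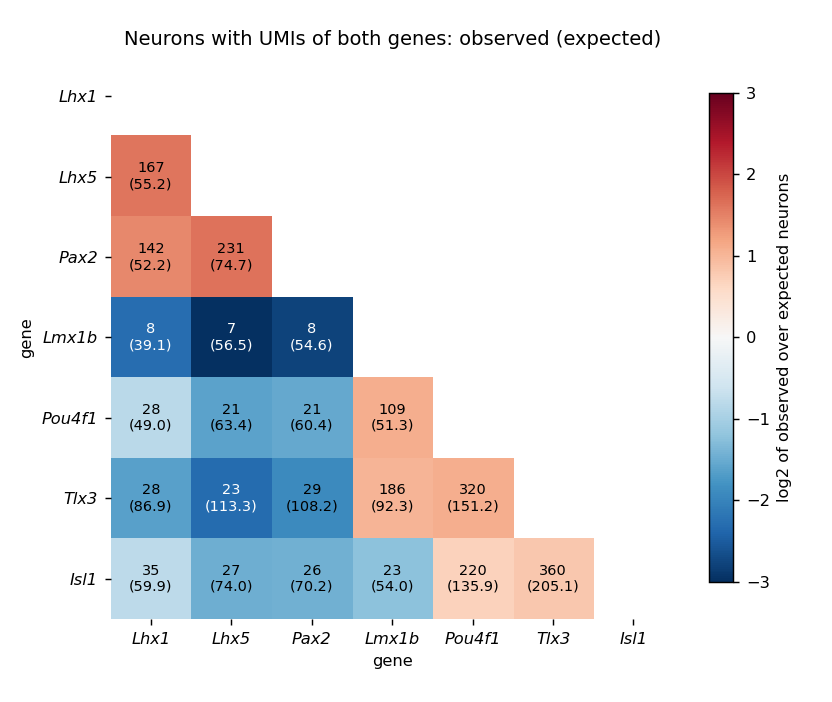
Neurons with UMIs of both genes, both libraries together. Each cell of the grid gives the observed number with the expected number in parentheses, and colour gives the log2 of their ratio (red above, blue below). Lhx1, Lhx5 and Pax2 pair with each other (142 to 231 neurons) and are rarely found with Lmx1b (7 or 8 neurons).

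Panels of genes that name a transmitter or a kind of neuron were then read in the same cells. The inhibitory genes reported were Gad1 and Gad2, which make GABA, Slc32a1, the vesicular carrier of GABA and glycine, and Slc6a5, the carrier that takes up glycine. These 4 genes lay above expectation with Lhx1 (2.30- to 2.76-fold), with Lhx5 (2.66- to 3.39-fold) and with Pax2 (2.91- to 3.28-fold). The same 4 lay below it with Tlx3, Isl1, Lmx1b and Pou4f1, with median ratios of 0.199, 0.295, 0.147 and 0.267. Slc17a6, the vesicular glutamate carrier VGLUT2 and the 1 gene of the excitatory panel found in enough neurons, ran the other way. Its ratio was 2.50 (2.14 to 2.90) with Lmx1b, 2.40 with Pou4f1, 1.95 with Tlx3 and 1.33 with Isl1, and 0.639 with Lhx1, 0.428 with Lhx5 and 0.315 with Pax2. Over the 289 reported pairs of a member and a panel gene with an expected number of at least 5, 50 reached a ratio of 2 and 77 lay at 0.5 or less, and the panels were drawn up from known neuron genes.

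Isl1 stood out among the 7 by the sympathetic panel, genes of neurons that make noradrenaline. The 6 genes reported lay above expectation with Isl1, among them Phox2a (251 neurons against 109, 2.30-fold, 2.03 to 2.60), a homeobox factor of these neurons, and Dbh (2.28-fold, 1.99 to 2.60), the enzyme that makes noradrenaline from dopamine. With Lmx1b the 6 lay below it, at 0.239- to 0.484-fold. With Pou4f1, 4 of 6 lay below it, with Phox2a at 0.184-fold, and Th, the enzyme tyrosine hydroxylase, lay above it (142 neurons against 83.6, 1.70-fold). With Tlx3, 5 of 6 lay above, at 1.20- to 1.68-fold over the 6. Of the 8 sensory genes reported, 5 lay above expectation with Tlx3, 5 with Isl1 and 4 with Pou4f1, and 1, 2 and 1 lay below it. Over the 8 the ratios ran from 0.614 to 1.93 with Tlx3, from 0.603 to 2.05 with Isl1 and from 0.388 to 2.37 with Pou4f1, the highest being that of Avil, which codes for an actin-binding protein of sensory neurons. In the cholinergic panel, 3 of the 4 genes were found in enough neurons. Chat was not among them. It had a UMI in 1 of 866 neurons with a gene of the Tlx3 set and none of the inhibitory set. The 3 genes lay above expectation with Isl1 (1.63- to 1.86-fold), and 2 of 3 did with Tlx3 and with Pou4f1. With Pou4f1, Slc18a3 lay below it (0.104-fold, 0.00263 to 0.579). In the progenitor panel, a ratio of 2 was reached by 3 of 3 genes with Lhx1, 3 of 5 with Lhx5 and 2 of 4 with Pax2. With Tlx3, Isl1, Lmx1b and Pou4f1 it was reached by 0. By the interval, 3 of 5 progenitor genes also lay above expectation with Pou4f1, at 1.98-fold or less, and 0 did with Tlx3, Isl1 and Lmx1b.

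Among 19 other factors of spinal neurons with enough detection, the paired-box genes Pax5 and Pax8 and the homeobox genes Otp and Gbx1 went with the inhibitory set. Pax5 had the highest ratio with each of its genes, 4.14 (2.77 to 5.94) with Pax2, 3.86 (2.36 to 5.96) with Lhx1 and 3.61 (2.36 to 5.28) with Lhx5, though it was detected in 32 neurons in all. Pax8, the close relative of Pax2, shared 141 neurons with it against 39.8 expected (3.55-fold, 2.98 to 4.18), Otp 29 against 7.91 (3.67-fold), and Gbx1 shared 64 with Lhx1 against 18.9 (3.38-fold, 2.60 to 4.32). Pou4f3, Isl2 and Pou4f2, which are relatives of Pou4f1 and Isl1, were the 3 factors highest with Pou4f1 (2.78-, 2.68- and 2.59-fold) and with Tlx3 (2.15-, 2.08- and 2.03-fold). With Lmx1b, Pou4f2 (1.62-fold, 0.836 to 2.83) did not part from expectation, and Ntrk3, the receptor for neurotrophin-3, did (1.58-fold, 1.28 to 1.93).

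The combinations of the 9 genes in single neurons separated further groups, which were listed after the pairs had been seen. The groups rest on detection, and a gene with no UMI in a neuron may still be made there. Neurons with Lmx1b had a median of 1 UMI of it in either library, so neurons of like kind may fall into different combinations. Combinations that were found in at least 40 neurons numbered 12, beside the 561 neurons with none. The most common was Tlx3 with Isl1 and Pou4f1, in 180 neurons, which were also deep, with a median of 21086 UMIs. Of these 180, 83.3% had Prph, a neurofilament of peripheral neurons, 79.4% Slc17a6, 76.7% Isl2 and 49.4% Avil, while 3.33% had Phox2a and 0.556% had Gad1. Th was found in 63.3% of them.

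Tlx3 with Isl1 but without Pou4f1 (132 neurons) and Isl1 alone (140 neurons) had another make-up, at median depths of 10646.5 and 10165.5 UMIs. Phox2a was found in 79.5% and 80.7% of them, Hand2 in 81.8% and 77.1% and Dbh in 75.8% and 67.1%, and Slc17a6 in 8.33% and 2.14%. By share, Th, also of the sympathetic panel, ran the other way. It was found in 40.2% and 42.1% of them, below the 63.3% of neurons with Tlx3, Isl1 and Pou4f1. Those had a median of 21086 UMIs, so the shares of Th are not like for like in depth. As a level, Th stood at 130 CPM in 143 neurons with Isl1 as the only gene of the 2 sets. It stood at 96.4 CPM in 322 neurons with Isl1 and Tlx3 or Pou4f1, but without Lmx1b or the inhibitory set. Those 322 include the 132 with Tlx3 and Isl1 as well as the 180 that also had Pou4f1. These levels therefore do not compare the groups whose shares of Th were compared. By library, Phox2a was found in 80% and 78.4% of the neurons with Tlx3 and Isl1, in the order labelled Het/tdT and labelled MKO/tdT. It was found in 4.88% of 123 neurons that also had Pou4f1 and in 0 of 57, which allows a share with a UMI of up to 5.26% (exact interval up to 6.27%), in the same order. Among neurons with Tlx3 and Isl1, Isl2 and Avil went with the presence of Pou4f1 and Phox2a with its absence, although the deeper cells were those with Pou4f1.

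Lmx1b neurons without Isl1 had few of the peripheral genes. Tlx3 with Lmx1b was found in 99 neurons, Tlx3 with Lmx1b and Pou4f1 in 62, and Lmx1b alone in 45. Slc17a6 was detected in 69.7%, 71.0% and 37.8% of these, at median depths of 6236, 6031.5 and 6685 UMIs. It was detected in 38.6% of the 88 neurons with Tlx3 alone. As a level, Slc17a6 stood at 170 CPM in 235 neurons with Lmx1b but without Isl1 or the inhibitory set. It stood at 72.2 CPM in 322 neurons with Isl1 and Tlx3 or Pou4f1, but without Lmx1b or the inhibitory set. Those 322 pool unlike neurons. Slc17a6 was found in 79.4% of the 180 with Tlx3, Isl1 and Pou4f1 but in 8.33% of the 132 with Tlx3 and Isl1. The level of 72.2 CPM is therefore not that of the Isl1 neurons with Slc17a6. Lbx1, a homeobox factor of dorsal horn neurons, was detected in 30.3%, 54.8% and 26.7% of the 3 combinations with Lmx1b. It was not particular to them. It was found in 27.3% of neurons with Tlx3 alone and in 49.0% of those with Lhx5 and Pax2. With Lhx1, Lhx5 and Pax2 it was found in 54.8%, and with Lhx1 and Lhx5 in 18.4%. Prph was found in 5.05%, 1.61% and 6.67% of the 3 combinations with Lmx1b.

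The combinations of the inhibitory set shared Gad2 and differed in other genes. Gad2 was found in 76.0% of 104 neurons with Lhx5 and Pax2, in 71.0% of 93 with Lhx1, Lhx5 and Pax2, in 74.6% of 63 with Pax2 alone and in 55.1% of 49 with Lhx1 and Lhx5. Slc6a5 was found in 32.7%, 25.8%, 22.2% and 16.3% of them, in that order. Gbx1 was detected in 40.9% of neurons with all 3 genes and in 13.5% of those with Lhx5 and Pax2, and Nxph1, a secreted ligand of neurexins, in 53.8% and 14.4%. Pax8 was found in 51.9% with Lhx5 and Pax2 and in 12.2% with Lhx1 and Lhx5. Slc17a6 was found in 1.59% to 14.3% of these 4 combinations.

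**Figure D3:**
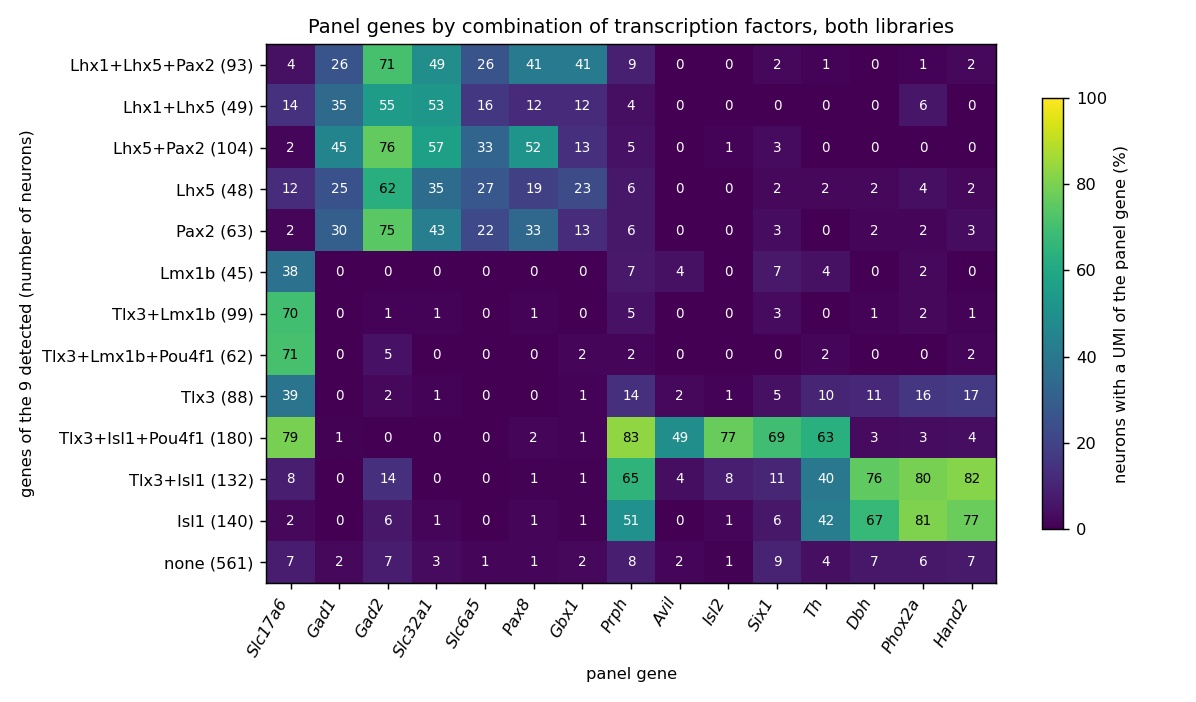
Percent of neurons with a UMI of each panel gene (columns, numbers in the cells and colour) for each combination of the 9 genes found in at least 40 neurons (rows, with the number of neurons), both libraries together. Blocks are seen, with Gad2 highest where Lhx5 or Pax2 was found and Phox2a with Isl1 in the absence of Pou4f1. Isl2 reaches 76.7% with Tlx3, Isl1 and Pou4f1. By share, Slc17a6 is highest with Tlx3, Isl1 and Pou4f1 (79.4%) and with Tlx3 and Lmx1b (69.7% and 71.0%). These Slc17a6 shares come from unlike median depths, of 21086, 6236 and 6031.5 UMIs in that order.

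Over all 12235 genes detected in at least 20 neurons of each library, the genes most like each member were found from the Pearson correlation of logged counts over neurons, averaged over both libraries (1170 and 774 neurons). These values are a description, since the neurons of a library share its preparation and differ in depth. The gene most like Lhx1 was Lhx1os, its neighbour on the opposite strand (mean r = 0.76), followed by Lhx5 (0.49), Nxph1 (0.48), Gbx2 (0.45) and Pax2 (0.41). For Lhx5 they were Pax2 (0.61), Nrxn3 (0.57), Gad2 (0.52), Lhx1 (0.49) and Lamp5 (0.49), and for Pax2 they were Gad2 (0.62), Lhx5 (0.61), Nrxn3 (0.59), Lamp5 (0.56) and Pax8 (0.51). Isl1 was most like Nefm (0.75), Prph (0.72), Nefl (0.70), Scn9a (0.69) and Sncg (0.66). Nefm and Nefl are neurofilament subunits, and Scn9a is a sodium channel of sensory and sympathetic neurons. Nefm was not confined to neurons with Isl1, and was found in 44.9% of those with Lhx1 and Lhx5.

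Tlx3 was most like Ebf1 (0.50), Prrxl1 (0.46), a homeobox gene of pain pathways also known as Drgx, Pou4f1 (0.42), Ebf2 (0.41) and Slc17a6 (0.38). Pou4f1 was most like Ppp1r1c (0.42), Tlx3 (0.42), Prrxl1 (0.39), Ebf1 (0.39) and Nhlh2 (0.38). For Lmx1b the list was C130021I20Rik (0.46), Ebf2 (0.44), Ebf3 (0.43), Ajap1 (0.43) and Plxna2 (0.42). Prrxl1 was in the sensory panel under its other name, which the table does not use, so it entered no panel count.

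Between the libraries, Lhx1 and Lmx1b differed in opposite directions in neurons. The level of Lhx1 was 2.03-fold higher in the library labelled Het/tdT (67.4 against 33.1 CPM, log2 ratio 1.02, 0.84 to 1.21) and that of Lmx1b was lower there (16.0 against 24.6 CPM, log2 ratio -0.62, -0.89 to -0.35). Isl1 stood higher in the library labelled Het/tdT, with a log2 ratio of 0.66 (0.57 to 0.76), as did Lhx5 (0.37, 0.14 to 0.60), Tlx3 (0.33, 0.20 to 0.46) and Pou4f1 (0.32, 0.18 to 0.47), and the interval of Pax2 spanned 0 (-0.05, -0.23 to 0.14). These intervals take each UMI as an independent draw, while UMIs of a gene gather in cells. For Lhx1 in the library labelled Het/tdT, 32.5% of the UMIs lay in the top 10% of neurons that had it. The intervals are therefore too narrow for the spread among cells. Of the 8 members with at least 20 UMIs, the interval lay above 0 for 5 and below for 1, and over 14453 genes it lay above 0 for 15.5% and below for 17.1%. The median log2 ratio was 0.35 over the 8 members and -0.02 over all genes. Lhx1 and Lhx9 passed 2-fold, as did 3.18% of genes in that direction, 0 members passed it in the other, as did 2.17% of genes, and the interval of Lhx9 spanned 0.

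Several of these differences moved with the make-up of the cells called neurons. Among neurons without 3 or more markers of another class, Lhx1 (log2 ratio 1.08, 0.87 to 1.31) and Isl1 (0.41, 0.29 to 0.53) remained higher in the library labelled Het/tdT and Lmx1b remained lower (-0.84, -1.15 to -0.53), while the intervals of Lhx5 (0.21), Tlx3 (-0.10), Pou4f1 (0.06) and Pax2 (0.04) spanned 0. There the interval lay above 0 for 8.75% and below 0 for 8.86% of 11945 genes. In the cells outside the neurons, 7 of 8 members had intervals above 0, with log2 ratios of 1.93 for Lhx1, 1.45 for Tlx3, 1.36 for Isl1, 1.10 for Pax2, 1.09 for Lhx5, 0.86 for Pou4f1 and 0.52 for Lhx9, where 33.2% of 18801 genes had such an interval. Neurons were also the more common cells in the library labelled Het/tdT, at 11.3% against 6.18%. The other cells include 33 and 12 that reached the limit of neuron marker UMIs but had Sox10. Of the UMIs outside neurons, the 33 held 45.8% of Pou4f1, 33.9% of Tlx3, 16.2% of Isl1 and 0% to 7.35% of each other member. The 12 in the library labelled MKO/tdT held 19.2%, 8.59%, 7.65% and 0% to 12.3%. The part that free RNA or such cells play in the ratios was not tested.

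**Figure D4:**
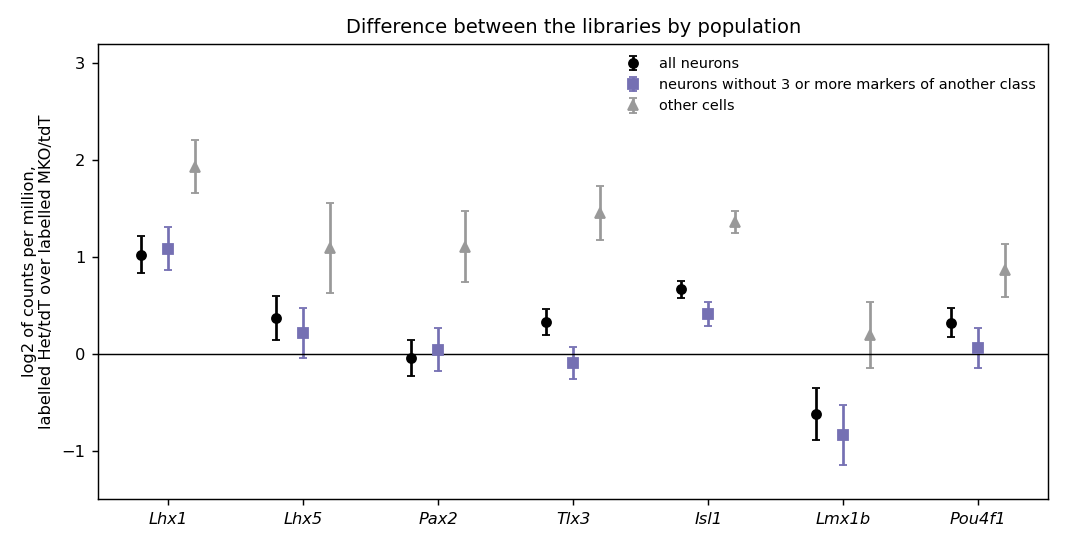
Log2 ratio of CPM, library labelled Het/tdT over library labelled MKO/tdT (y axis), for 7 of the genes in all neurons (circles), in neurons without 3 or more markers of another class (squares) and in other cells (triangles), with exact 95% intervals for counting error. Lhx1 is above 0 in all 3 populations, and Lmx1b is below 0 in both sets of neurons.

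Outside the neurons, Isl1 was the most widely detected member. Cells were grouped by which list of 6 markers was most detected. In endothelial and immune groups, which served as background, Isl1 had a UMI in 2.98% and 1.63% of cells in the library labelled Het/tdT and in 1.06% and 1.63% in the library labelled MKO/tdT, at median depths of 14945, 14557, 12493.5 and 12865 UMIs. In the mesenchyme group it was found in 10.5% of 2419 and 4.98% of 3816 cells at lower depths of 9480 and 9858.5 UMIs, and in the epithelium group in 17.8% of 129 and 6.06% of 99. The mesenchyme group held 34.7% and 41.5% of the UMIs of Isl1 outside neurons. Isl1 was not particular to that group. Cells that no marker list named held 34.1% and 27.1%, with Isl1 in 12.4% of 2116 and 4.85% of 2579 cells. Their median depths were 5676.5 and 7934 UMIs. In the order labelled Het/tdT and labelled MKO/tdT, Isl1 was also found in 4.94% of 81 and 4.42% of 1765 muscle cells. Schwann cells had it in 3.57% of 112 and 5.10% of 157. The cartilage group had it in 5.16% of 2498 and 2.27% of 2509 cells, with 14.2% and 8.87% of its UMIs outside neurons. Isl1 is also known as a factor of hindlimb and genital mesenchyme.

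Lmx1b, which patterns the dorsal side of the limb mesenchyme, was found in 1.69% and 1.60% of the mesenchyme group, beside 0.442% and 0.265% of the endothelial group, and the mesenchyme group held 31.6% and 44.9% of its UMIs outside neurons. In the immune group of the library labelled Het/tdT it was found in 0.816% (0.265% to 1.89%), an interval that overlaps that of the mesenchyme group (1.22% to 2.29%), and in that of the library labelled MKO/tdT in 0 of 123 cells (exact interval up to 2.95%). Lhx9 was found in 0.909% and 0.393% of the mesenchyme group and in 0.721% and 1.08% of the cartilage group, and in 0 of 906 and 378 endothelial cells, which allows a share with a UMI of up to 0.331% and 0.794% (exact intervals up to 0.406% and 0.971%). The share in the mesenchyme group of the library labelled MKO/tdT lay under that limit and is not read as above background. For Lhx1 the mesenchyme group (2.44% and 0.576%) matched the endothelial group (2.43% and 0.529%) in share. Its median depths were lower, at 9480 and 9858.5 against 14945 and 12493.5 UMIs. As a level, Lhx1 stood at 2.71 and 0.653 CPM in the mesenchyme group against 1.40 and 0.322 in the endothelial group, the last on 2 UMIs. Whether Lhx1 in the mesenchyme group lay above background was not tested. Cells with the most neuron markers that were outside the rule, 126 and 56 of them with median depths of 3211.5 and 3703.5 UMIs, had Tlx3 in 27.8% and 37.5% and Pax2 in 19.0% and 16.1%. Of the UMIs outside neurons, they held 29.9% and 36.5% of Lhx1, 35.4% and 18.4% of Tlx3, and 11.1% and 5.30% of Isl1.

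**Figure D5:**
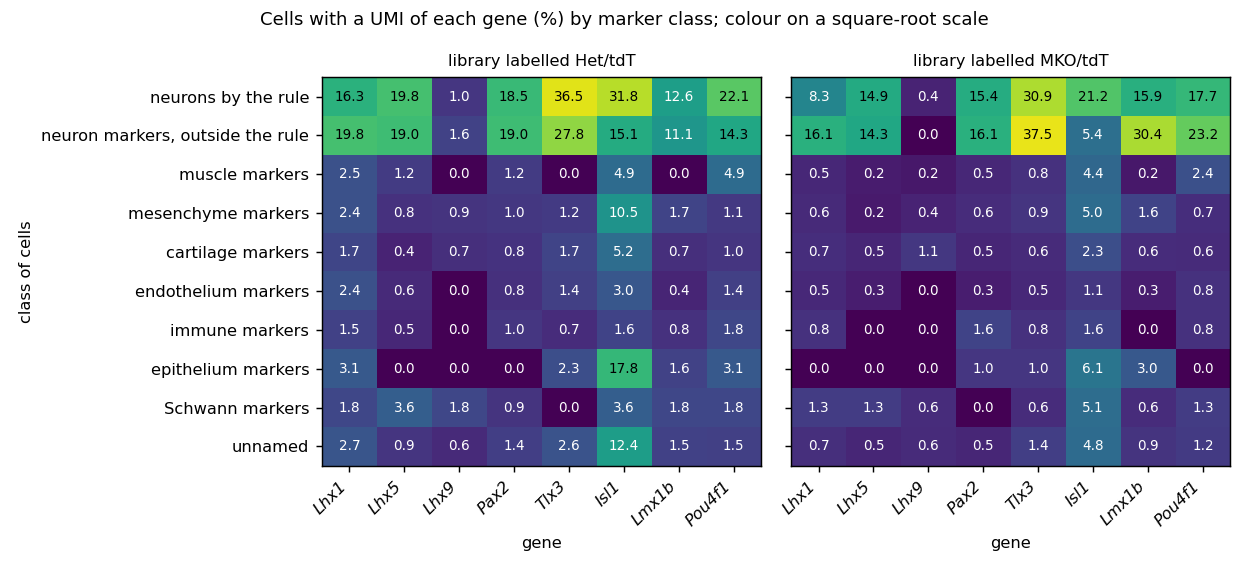
Percent of cells with a UMI of each gene (columns, Mnx1 not drawn) in neurons and in groups of other cells named by their most detected marker list (rows), for the library labelled Het/tdT (left) and labelled MKO/tdT (right), with colour on a square-root scale. Isl1 reaches 10.5% and 4.98% in the mesenchyme group and 12.4% and 4.85% in the unnamed group. The other genes stay at 4.94% or less in the drawn groups without neuron markers. The bone, pericyte, erythroid and neural progenitor groups are not drawn, and in the last, with 13 and 14 cells, Lhx5 was found in 0 and 2 cells.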

How the data were processed

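Cells of E14 embryos had been sorted on tdT and sequenced as 1 library per genotype with Chromium 3' chemistry. The authors mapped reads to mm10 and called cells with Cell Ranger (version 5.0.0 in the header of the matrix; the processing notes list 3.1.0, with STAR and Seurat 3.1.1), then down-sampled the reads and joined the libraries. The authors deposited UMI counts per gene and barcode, before their quality filters, with totals of 128116615 in the library labelled Het/tdT and 156093779 in the library labelled MKO/tdT. The barcode suffix was paired with a library by the number of cells in the deposited summaries (12498 and 15268). Groups follow the sample titles.

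Cells of each library passed if log10 UMIs and log10 genes both lay no more than 2 SD from their mean and mitochondrial UMIs made up no more than 10%. The number that passed is above the total that the study states. No doublet caller was run. Levels are summed UMIs in CPM of the population. Intervals are exact at 95% (Clopper-Pearson for shares and for the split of counts, Poisson for counts) and cover counting error only, and a floor is 3 counts. Co-detection was computed within 10 depth bins per library. Genes entered a comparison of libraries with at least 20 UMIs, and a class outside the neurons needed at least 3 of 6 markers. Named genes are the 9 members, the 3 panel genes highest with each member (at least 20 neurons, expected number at least 1) and the 5 genes most like each member, on counts scaled to 10000 per cell and logged; other panel genes were chosen for the text after their values were seen. The members, lists and panels were chosen with earlier results of these data known. Some panel genes are not reported here, and the panel counts leave them out. Python 3.11.15 was used, with SciPy 1.17.1 and NumPy 2.4.6 for the statistics, pandas 2.3.3 for tables and matplotlib 3.10.9 for figures. Intervals and expected numbers were tested on simulated data, in which the UMIs for the intervals were drawn independently, so clustering of UMIs in cells was not covered.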

Additional observations from a re-analysis of the deposited data

Results flagged for a closer look

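For 3 genes the ratio between the libraries pointed in opposite directions in neurons and in other cells, and the difference was not tested. For Pax2 the log2 ratio, library labelled Het/tdT over library labelled MKO/tdT, was -0.048 in neurons and 1.10 in other cells. For Lmx1b it was -0.62 in neurons and 0.19 in other cells, where the interval spanned 0. For Mnx1 it was 2.79 in neurons and -0.59 in other cells, on 12 and 1 UMIs in neurons and 1 and 2 in other cells.

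Lhx9 pointed in opposite directions when neurons were set against other cells, with a log2 ratio of 0.68 in the library labelled Het/tdT and -0.25 in the library labelled MKO/tdT. Both intervals spanned 0 and the difference was not tested.

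The quality limits removed 50 and 45 barcodes that met the rule for neurons, of which 46 and 42 were over the mitochondrial limit, and these were used in no comparison. Of them, 72% (57.5% to 83.8%) in the library labelled Het/tdT and 57.8% (42.2% to 72.3%) in the library labelled MKO/tdT had a UMI of at least 1 of the 9 genes, beside 75.1% and 65.1% of the kept neurons.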

How the results depend on the processing

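No paired analysis was possible because there was 1 library per genotype. Over 10 alternatives, 368 of 558 values stayed within their interval, or a count within 1.5 times, 189 moved and 1 changed direction, the log2 ratio of Tlx3 between the libraries, which was -0.10 in neurons without 3 or more markers of another class and 0.33 as reported. The counts of pairs above and below expectation stayed within 1.5 times in the alternatives that bear on them, and each pair that could be computed kept its side. Over 7 alternatives the log2 ratio between the libraries ran from 0.83 to 1.66 for Lhx1 and from -0.84 to -0.42 for Lmx1b. In the following, values are given for the library labelled Het/tdT and then for the library labelled MKO/tdT. The share of kept cells that were neurons was 9.76% and 5.36% with no filter on cells, 14.3% and 7.99% with at least 3 marker UMIs, 8.37% and 4.07% with at least 10, and 6.81% and 3.18% without the neurons with other markers, and it was 5.14% in the library labelled MKO/tdT with a mitochondrial limit of 5%. The share of neurons with at least 1 of the 9 genes was 67.3% and 56.5% with at least 3 marker UMIs, 83.3% and 77.5% with at least 10, 86.4% and 86.7% without the neurons with other markers, 54.0% and 46.2% when cells were thinned to 2000 UMIs, which left out 26 and 6 neurons, 61.3% and 52.2% with at least 2 UMIs per gene, and 59.3% in the library labelled MKO/tdT with the limit of 5%. Mnx1 had 13 UMIs in all neurons and Lhx9 23, so little can be said of them at this depth.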
